A study of Arabidopsis thaliana with 8 samples.

Results

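The genes described are 6 class II trehalose-6-phosphate synthase genes of Arabidopsis and 4 genes known for rising in its sugar-starved or darkened tissue. The class II genes are TPS5 (AT4G17770), TPS7 (AT1G06410), TPS8 (AT1G70290), TPS9 (AT1G23870), TPS10 (AT1G60140) and TPS11 (AT2G18700). The starvation genes are ASN1 (AT3G47340), AKINBETA1 (AT5G21170), BGAL4 (AT5G56870) and SEN1 (AT4G35770). They were found by their locus codes among 21500 gene probes, where all 10 had 1 probe each, and all 10 passed the filter on dim probes. The data come from shoots of 13-day-old Arabidopsis thaliana seedlings of ecotype Columbia-0, grown on gelrite-solidified medium with 3% sucrose. Growth was at 22 °C with 16 h of light and 8 h of dark. In the wounded group the primary root was cut with a razor blade 5 mm from the base of the shoot, and shoots were harvested 30 or 360 min later. In the control group the roots were left unwounded, with a separate control for each time. The labels name no mutation or transgene, and how many seedlings went into each RNA is not given in the sources used here. Wounded and control RNA were hybridised together on 2-colour Agilent arrays, with 2 biological replicates at each time and 2 arrays of exchanged dyes per replicate, 8 arrays in all. A ratio below is always wounded over control on the log2 scale, averaged over both arrays of a replicate, and n = 2 replicates unless stated.

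Trehalose-6-phosphate is a sugar phosphate whose amount in plant tissue follows that of sucrose, and it inhibits SnRK1, a protein kinase that switches on gene expression of the starved state. TPS1, a class I enzyme, makes it. The class II proteins carry a synthase-like and a phosphatase-like domain but are thought to act as regulators, and in Arabidopsis several of their genes respond to sugar themselves, TPS5 rising with sugar and TPS8 to TPS11 with starvation. ASN1 encodes an asparagine synthetase induced in the dark, AKINBETA1 a beta subunit of SnRK1, BGAL4 a beta-galactosidase, and SEN1 a protein of senescing and darkened leaves.

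The share of gene probes well above background ran from 70.7% to 95.9% over the channels of the 8 arrays, with the lower shares at 30 min. The file headers give 4 dates of feature extraction, which is the quantification of the scans. The arrays of each replicate had a date of their own, so date and replicate coincide, and the dates differ between the times too. The replicate values below are the within-date values. All 6 shoot markers listed, among them RBCS1A and LHCB1.1, were well above background in all 16 channel measurements. Of 8 root markers, PYK10, CASP1, TIP2;3 and RHD6 were so too, while IRT1 and AHA7 were not above background in any 30 min channel. At 360 min IRT1 was above it in 2 wounded and 4 control channels, and AHA7 in 2 and 3. NRT2.1 was above background in 14 and PRP3 in 8 of the 16 measurements. Of the 6 root markers tested, 0 passed limma's test at either time, and 0 had an unadjusted p under 0.05. In whole shoots, fewer cells of a type and less RNA per cell cannot be told apart. Transcripts of related TPS genes could share signal on a probe, since probe sequences were not used here.

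At 30 min after root wounding, 4 of the 10 genes fell in wounded shoots, namely TPS11, TPS8, BGAL4 and AKINBETA1, and 1 rose, ASN1 (limma, Benjamini-Hochberg adjusted p under 0.05 over 19177 genes). Over all genes tested 6.69% passed, 2.16% falling and 4.52% rising. The changes were small, the furthest being the 1.61-fold lower level of TPS11. The median log2 ratio of the 10 genes was -0.25, against 0.00 over all genes, with 8 ratios below 0 and 2 above. The ratio was below 0 on all 4 arrays for TPS5, TPS8, TPS10, TPS11, AKINBETA1, BGAL4 and SEN1, and above 0 on all 4 for ASN1. These 4 arrays are dye exchanges of 2 replicates. The share of all genes with a single sign on all 4 was not counted at either time. The signals of the 6 shoot markers summed to between 198579 and 207003 units in wounded and between 215817 and 216654 in control shoots, and 0 of them passed (1 with an unadjusted p under 0.05). Their part in these results was not tested.

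Among the class II genes, TPS11 had signals of 573 and 364 in wounded shoots at 30 min, against 804 and 669.5 in control shoots, in replicates 1 and 2 (normalised fluorescence units, which include an added offset of 50). Every wounded value lay below every control value. With 2 values in each group, such a separation can arise without a difference. The share of all genes without overlap was not counted, here or for the genes below. Its log2 ratios were -0.49 and -0.88, a mean of -0.68 ± 0.27 (SD, n = 2, adjusted p = 0.0146). TPS8 had 313 and 214 units in wounded shoots, against 408 and 368 in control shoots, again without overlap. Its mean log2 ratio was -0.58 ± 0.28 (adjusted p = 0.0453). Both genes had the lower ratio in replicate 2. TPS10, at 441 and 300.3 units in wounded and 503 and 352 in control shoots, overlapped between the groups because replicate 1 was brighter in both, and its log2 ratio of -0.21 ± 0.03 did not pass (adjusted p = 0.106). TPS5, the member known for rising with sugar, had 305 and 258 units in wounded and 336 and 291 in control shoots. Its log2 ratio was -0.16 ± 0.02 (adjusted p = 0.161). TPS7 had 552 and 432 units in wounded and 471 and 409.6 in control shoots, with a log2 ratio of 0.15 ± 0.11 (adjusted p = 0.234). TPS9 stood at 186 and 157 units in wounded and 183 and 160.1 in control shoots, the ratio nearest 0 of the 6, at -0.0044 ± 0.036 (adjusted p = 0.995). The class II genes thus covered log2 ratios from -0.68 to 0.15, and 2 of the 6 passed.

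Of the 4 starvation genes, AKINBETA1 had 181 and 154 units in wounded shoots at 30 min, against 216 and 195 in control shoots, with no overlap. Its log2 ratio was -0.30 ± 0.06 (adjusted p = 0.0139). BGAL4 had 284 and 249 units in wounded and 327 and 335 in control shoots, also without overlap, and a log2 ratio of -0.32 ± 0.16 (adjusted p = 0.0422). SEN1 had 962 and 701 units in wounded and 1049 and 1066 in control shoots. The groups did not overlap, but the replicates differed, at log2 ratios of -0.13 and -0.60, and SEN1 did not pass (adjusted p = 0.156). ASN1 went the other way, with 240.2 and 129 units in wounded shoots and 187 and 114 in control shoots. These values overlapped between groups because replicate 1 was the brighter in both, while within each replicate wounded shoots were higher, at log2 ratios of 0.36 and 0.18 (mean 0.27 ± 0.13, adjusted p = 0.0467). ASN1 and SEN1 are both used as markers of the dark and starved state, and their ratios had opposite signs here.

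Without 30 min replicate 2, 0 of the 10 genes passed at 30 min, and without replicate 1 TPS11 and SEN1 did. On the authors' log ratios AKINBETA1 at -0.52, ASN1 at 0.50 and TPS11 passed, whereas without background correction TPS8 was at -0.38, AKINBETA1 at -0.16, BGAL4 at -0.20 and ASN1 at 0.13, with AKINBETA1 and TPS11 alone passing.

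**Figure D1:**
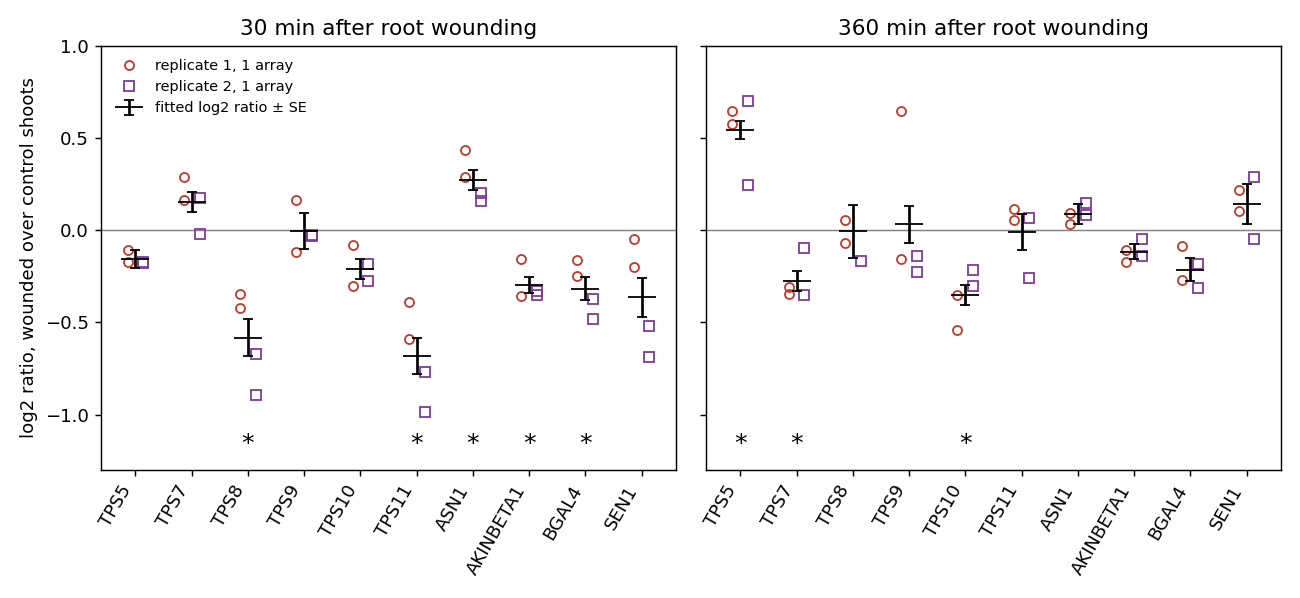
Log2 ratio of wounded over control shoots for the 10 genes at 30 min (left) and 360 min (right), with each open symbol 1 array (circles replicate 1, squares replicate 2), bars the fitted ratio ± its SE, and asterisks an adjusted p under 0.05. At 30 min TPS8 and TPS11 lie lowest, at -0.58 and -0.68, and at 360 min TPS5 lies highest, at 0.54.

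At 360 min TPS5 was higher in wounded shoots, 1.46-fold, and TPS7 and TPS10 were lower, 1.21-fold and 1.28-fold, while the 7 other genes did not pass (limma, adjusted over 19146 genes). Over all genes 7.3% passed at this time, 3.08% rising and 4.22% falling. None of the 4 starvation genes passed, although AKINBETA1 and BGAL4 had unadjusted p-values under 0.05. The median log2 ratio of the 10 genes was -0.01, against 0.00 over all genes. The signals of the 6 shoot markers also differed at this time, summing to between 196945 and 212066 units in wounded and between 176546 and 177792 in control shoots, with 4 of 6 higher and 1 lower. Whether they bear on the ratios of the class II genes was not tested.

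TPS5 had 486 and 430 units in wounded shoots at 360 min, against 318 and 309 in control shoots, in replicates 1 and 2. The groups were well apart and all 4 arrays had a ratio above 0. Its log2 ratios were 0.61 and 0.48, a mean of 0.54 ± 0.10 (SD, n = 2, adjusted p = 0.00769). TPS10 had 141 and 179.8 units in wounded and 191 and 215 in control shoots, without overlap, and a ratio below 0 on all 4 arrays. Its mean log2 ratio was -0.35 ± 0.13 (adjusted p = 0.0254). TPS7 had 222 and 268 units in wounded and 278 and 313 in control shoots, likewise without overlap, with a log2 ratio of -0.28 ± 0.07 (adjusted p = 0.0404). The genes that had fallen furthest at 30 min, TPS11 and TPS8, did not pass at 360 min. TPS11 had 196 and 196 units in wounded and 185 and 209.8 in control shoots, a log2 ratio of -0.01 ± 0.13 (adjusted p = 0.981). TPS8 had a ratio in replicate 1 alone, at -0.01 (adjusted p = 0.986), since a spot of replicate 2 was marked as an outlier. TPS9 was at 0.24 in replicate 1 and -0.18 in replicate 2 (adjusted p = 0.904). In its replicate 1 the arrays went opposite ways, at 0.64 with wounded RNA in Cy3 and -0.16 with it in Cy5.

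AKINBETA1 had 146 and 147 units in wounded shoots at 360 min and 160.5 and 156 in control shoots, with a log2 ratio of -0.12 ± 0.03 (adjusted p = 0.189). BGAL4 had 156 and 183 units in wounded and 177 and 217 in control shoots, at -0.21 ± 0.05 (adjusted p = 0.114). For both genes all 4 arrays had ratios below 0, as at 30 min. SEN1 had 264 and 387 units in wounded and 236 and 356 in control shoots, at 0.14 ± 0.03 (adjusted p = 0.531). ASN1, at 65.6 and 84.8 units in wounded and 62.8 and 78.3 in control shoots, was close to the offset of 50. It was well above background on 3 of 4 arrays in each group, and its log2 ratio was 0.09 ± 0.04 (adjusted p = 0.434).

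With the 360 min arrays fitted alone, and equally without either 30 min replicate, 0 of the 10 genes passed at 360 min (adjusted p = 0.0655 for TPS5, 0.0987 for TPS7 and 0.103 for TPS10). Without 360 min replicate 1 and on the authors' log ratios TPS5 passed alone, and TPS10 was at -0.22 without background correction.

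The wound response differed between the times for 3 of the 10 genes, TPS5, TPS7 and TPS11, all of class II, in limma's contrast of the ratios over 19145 genes. Over all genes 7.39% passed, 2.56% with a higher and 4.83% with a lower ratio at 360 than at 30 min. For TPS5 the ratio was higher at 360 min by 0.70 ± 0.07 (SE, adjusted p = 0.00527), between replicate ratios of 0.61 and 0.48 at 360 min and -0.14 and -0.17 at 30 min. For TPS7 it was lower by a log2 difference of -0.43 ± 0.07 (SE, adjusted p = 0.0306), between -0.33 and -0.22 at 360 min and 0.23 and 0.08 at 30 min. These genes moved in opposite ways, each with replicate ratios on opposite sides of 0 at the different times. For TPS11 the ratio was higher at 360 min by 0.68 ± 0.14 (SE, adjusted p = 0.047), with 0.08 and -0.10 at 360 min and -0.49 and -0.88 at 30 min. TPS8 and SEN1 had differences of 0.58 ± 0.18 and 0.51 ± 0.15 (SE) that did not pass (adjusted p = 0.155 and 0.127). Those of the other genes, TPS9, TPS10, ASN1, AKINBETA1 and BGAL4, lay between -0.18 and 0.18. Without either 30 min replicate 0 of the 10 genes passed. Without 360 min replicate 1, with median centring and on the authors' log ratios TPS5 passed alone.

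**Figure D2:**
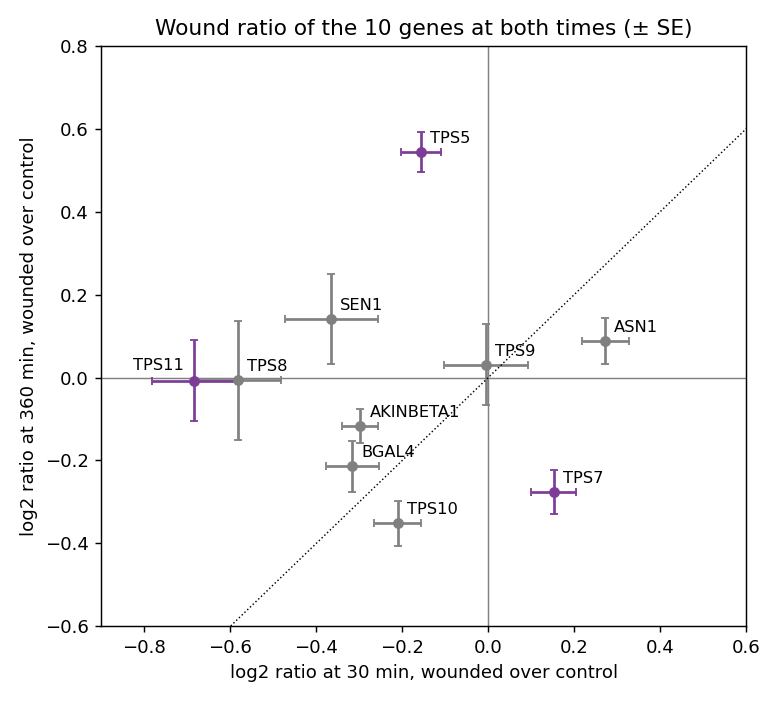
Log2 ratio of wounded over control shoots at 360 min (vertical axis) against that at 30 min (horizontal axis) for the 10 genes, with bars of ± SE and a dotted line where both are equal. Purple marks TPS5, TPS7 and TPS11, whose ratios differed between the times, by 0.70, -0.43 and 0.68.

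Set across times, most of these probes were dimmer in the 360 min than in the 30 min shoots of both groups. The times lie on different arrays, so time and array set cannot be told apart. Under the cycle of light and dark, time of day at harvest may also differ between them, and it cannot be told apart either. The single-channel comparison between arrays carries more error than the ratios within them. Its limma fit took wounded and control values of a replicate as independent, though they share arrays, so the adjusted p-values may be too small. In control shoots SEN1 and TPS11 were lower at 360 than at 30 min, 3.65-fold and 3.73-fold. Their log2 differences were -1.87 ± 0.28 (SE, adjusted p = 0.023) and -1.90 ± 0.23 (adjusted p = 0.0117). Of the 10 genes 0 were higher and 2 lower in control shoots, against 0.813% and 0.819% of all genes, together 1.63%. In wounded shoots TPS7, TPS11 and SEN1 were lower at 360 min, with log2 differences of -1.0 ± 0.19 (adjusted p = 0.032), -1.22 ± 0.23 (adjusted p = 0.0326) and -1.36 ± 0.28 (adjusted p = 0.0423), where 3.94% of all genes passed, 1.6% being higher and 2.34% lower. The difference was below 0 for 9 of the 10 genes in each group. The exception was TPS5, at 0.70 ± 0.16 in wounded shoots (adjusted p = 0.0671) and 0.00 ± 0.16 in control shoots (adjusted p = 0.997). TPS10 and ASN1 had differences near 1 log2 unit in both groups that did not pass, at -1.19 and -1.24 in wounded and -1.05 and -1.06 in control shoots. Without any 1 of the 4 replicates 0 of the 10 genes passed in control shoots. In wounded shoots 0 passed without either 360 min replicate or without 30 min replicate 1, and without between-array quantile normalisation SEN1 and TPS7 did not pass. TPS5 did pass in wounded shoots in that fit, and likewise without background correction.

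The order of the levels differed from gene to gene. TPS11 had a log2 signal of 8.83 ± 0.46 in wounded shoots at 30 min (SD, n = 2), below the 9.52 ± 0.19 of control shoots of that time, its highest level. Both groups of 360 min were lowest, at 7.61 ± 0.00 in wounded and 7.62 ± 0.13 in control shoots, which did not differ beyond their spread. SEN1 had the same order at 30 min, with 9.68 ± 0.32 in wounded and 10.05 ± 0.02 in control shoots, and its levels at 360 min were 8.32 ± 0.39 in wounded and 8.18 ± 0.42 in control shoots. TPS5 had its highest level in wounded shoots at 360 min, 8.84 ± 0.13, above control shoots of that time at 8.29 ± 0.03. At 30 min TPS5 was at 8.13 ± 0.17 in wounded and 8.29 ± 0.15 in control shoots, the control level being as high as that of the 360 min control shoots. TPS7 was lowest in wounded shoots at 360 min, 7.93 ± 0.19, and highest in wounded shoots at 30 min, 8.93 ± 0.25, with control shoots between, at 8.20 ± 0.12 at 360 min and 8.78 ± 0.14 at 30 min. TPS9 had mean levels between 7.1 and 7.42 in all 4 groups, less apart than the SD of 0.54 in its wounded shoots of 360 min. The levels of TPS8 at 360 min, 132 and 246 units in wounded and 133 and 209.7 in control shoots, include the outlier spot in replicate 2.

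**Figure D3:**
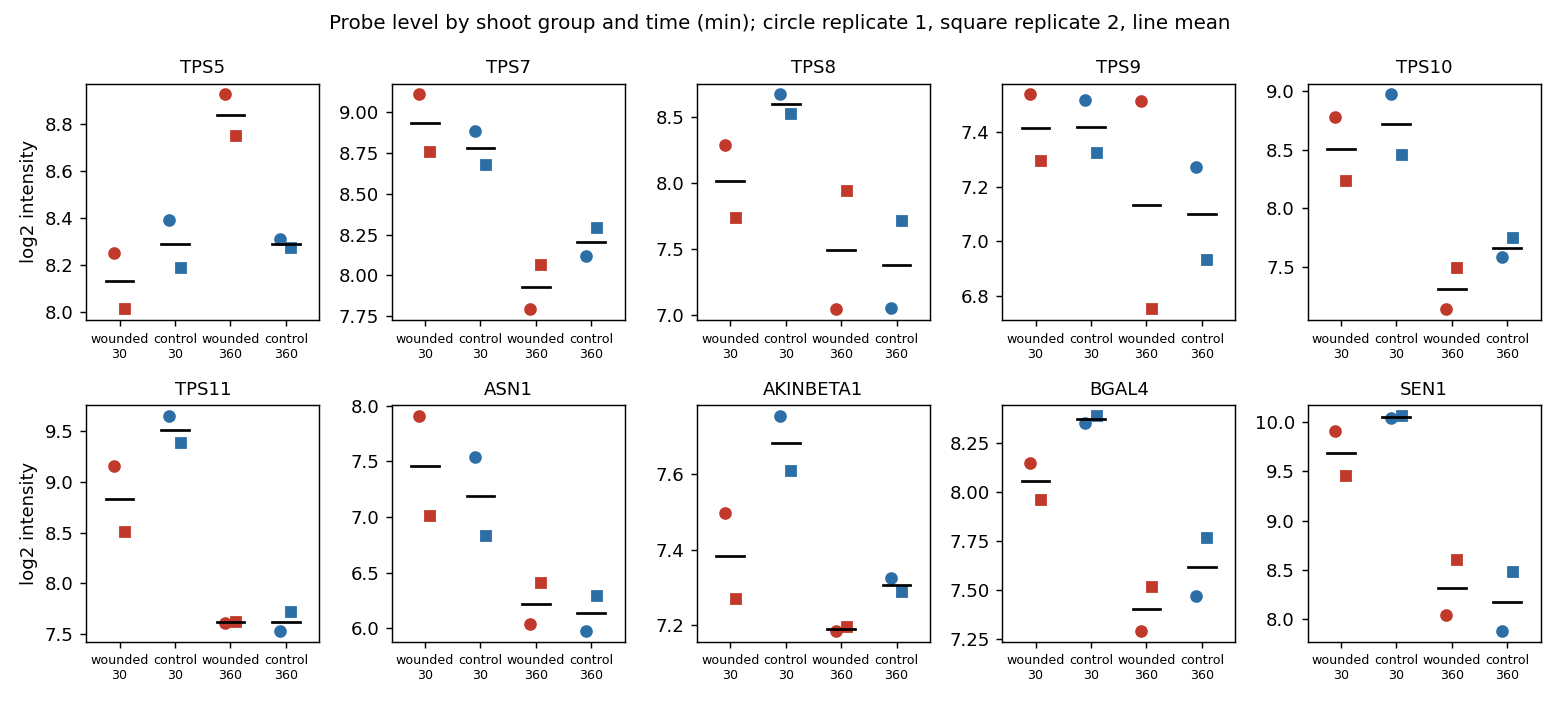
Log2 signal of each of the 10 probes in wounded (red) and control (blue) shoots at 30 and 360 min, with circles for replicate 1, squares for replicate 2 and a line at the mean. Each panel has its own vertical axis. TPS11 and SEN1 are lower at 360 than at 30 min in both groups, and TPS5 is highest in wounded shoots at 360 min.

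Of 16 other genes of the trehalose pathway listed, 10 were tested, and 1 passed at 30 min and 2 at 360 min, against 6.69% and 7.3% of all genes. At 30 min TPPG rose, at a log2 ratio of 0.36 ± 0.02 (adjusted p = 0.047). At 360 min TPPA fell, at -0.41 ± 0.04 (adjusted p = 0.0109), and so did TPPH, at -0.43 ± 0.10 (adjusted p = 0.0191). TPP genes encode phosphatases that turn trehalose-6-phosphate into trehalose. TPS1, the class I synthase, was at 0.01 ± 0.05 at 30 min and 0.01 ± 0.06 at 360 min (adjusted p = 0.968 and 0.95). TPS6, the remaining class II gene, was at -0.02 ± 0.06 at 30 min (adjusted p = 0.901) and at 0.15 in its only replicate with a value at 360 min (adjusted p = 0.283). TPPG did not pass without either 30 min replicate, with median centring, with outlier spots kept, without the filter on dim probes, or without background correction, where it was at 0.16, against 0.80 on the authors' log ratios. TPPH was at -0.23 without background correction and -0.77 on the authors' log ratios, and TPPA and TPPH did not pass with the 360 min arrays fitted alone or on the authors' log ratios.

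Among 9 genes for other SnRK1 subunits and the kinases that activate SnRK1, 0 passed limma's test at either time, with 1 unadjusted p under 0.05 at 30 min and 0 at 360 min. Their ratios lay between -0.15 and 0.05 at 30 min and between -0.11 and 0.03 at 360 min. KIN10, a catalytic subunit, was at -0.02 ± 0.09 at 30 min and 0.03 ± 0.02 at 360 min. KIN11, another, was at -0.04 in replicate 1 alone at 30 min and at 0.02 ± 0.05 at 360 min. AKINBETA1 was the SnRK1 subunit gene whose ratio passed at 30 min.

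Of 18 genes tested on a list of other starvation genes, 3 fell at 30 min and 6 at 360 min. At either time 0 rose. The list was kept as drawn up, and whether each of its genes rises with starvation was not tested here. Over all genes 2.16% fell and 4.52% rose at 30 min, and 4.22% fell and 3.08% rose at 360 min. Thus 0 of 18 rising is near the share of all genes. The genes and the lists of related genes were chosen with earlier results of these data known. A count above these shares may come from that choice, which was not tested. Those that fell at 30 min were AT2G20670 at -2.01 ± 0.03, SEN5 (AT3G15450) at -1.44 ± 0.23 and BT2, for a BTB and TAZ domain protein, at -1.32 ± 0.25 (adjusted p = 0.00138, 0.00302 and 0.00327). AT2G20670 and SEN5 had ratios near 0 at 360 min in this fit, at -0.01 ± 0.47 and -0.04 ± 0.35, with replicates of opposite sign. BT2 was still lower at 360 min, at -0.76 ± 0.31 (adjusted p = 0.0287). Its ratio at that time was not followed through the alternatives. At 360 min the smallest adjusted p-values were those of ASN2, a second asparagine synthetase gene, at -0.73 ± 0.07 (0.00322), PRODH1, for proline dehydrogenase, at -0.37 ± 0.01 (0.0105), DIN10, for a raffinose synthase family protein, at -1.03 in replicate 2 alone (0.0216), and GDH2, for a glutamate dehydrogenase, at -0.47 ± 0.18 (0.0259). ASN1 and ASN2 thus stood at 0.09 and -0.73 at 360 min. Whether ASN2 rises with starvation was not tested here, so its fall, counted among the 6, is not read as that of a starvation gene. The medians of this list were -0.08 at 30 min and -0.10 at 360 min, with 3 of 18 ratios above 0 at each time. The highest at 30 min was that of GDH2, at 0.34 ± 0.12 (adjusted p = 0.0596). Without either 30 min replicate the 3 genes that fell at 30 min did not pass, and with the 360 min arrays fitted alone ASN2 passed while PRODH1, DIN10 and GDH2 did not. PRODH1 was at -0.24 without background correction.

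The C and S1 bZIP factors act together downstream of SnRK1 in the starved state. Of 9 tested 3 fell at 30 min and 2 at 360 min, against 2.16% and 4.22% of all genes. At both times 0 rose, near the 4.52% and 3.08% of all genes. Ratios above 0 numbered 3 of 9 at 30 min, the highest 0.42 (adjusted p = 0.0532), and 4 of 9 at 360 min. BZIP1 was at -0.72 ± 0.07 at 30 min (adjusted p = 0.00224). BZIP2 was at -0.58 ± 0.01 at 30 min and -0.31 ± 0.03 at 360 min (adjusted p = 0.000915 and 0.0139). BZIP63, which SnRK1 phosphorylates, was at -0.71 in replicate 2 alone at 30 min and -0.40 ± 0.09 at 360 min (adjusted p = 0.00851 and 0.024). Of 10 sugar-induced genes, 1 rose at 30 min and 3 at 360 min, against 4.52% and 3.08% of all genes, and 0 fell, against 2.16% and 4.22%. At 30 min 1 of 10 rising, and at both times 0 of 10 falling, are near those shares. PAP1, a MYB factor gene of anthocyanin synthesis, was at 0.97 ± 0.03 at 30 min and 1.29 ± 0.19 at 360 min (adjusted p = 0.00119 and 0.00199). At 360 min APL3, for a large subunit of ADP-glucose pyrophosphorylase, was at 0.98 ± 0.33 (adjusted p = 0.0109) and BAM5, for a beta-amylase, at 0.50 ± 0.03 (adjusted p = 0.0406). BZIP1 and PAP1 did not pass at 30 min without either replicate of that time, and at 360 min BZIP2, BZIP63, APL3 and BAM5 did not pass with that time fitted alone or on the authors' log ratios. Without background correction and on the authors' log ratios, BZIP2 at 30 min was at -0.33 and -0.92, PAP1 at 30 min at 0.56 and 1.60, and BZIP63 at 360 min at -0.25 and -0.57.

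**Figure D4:**
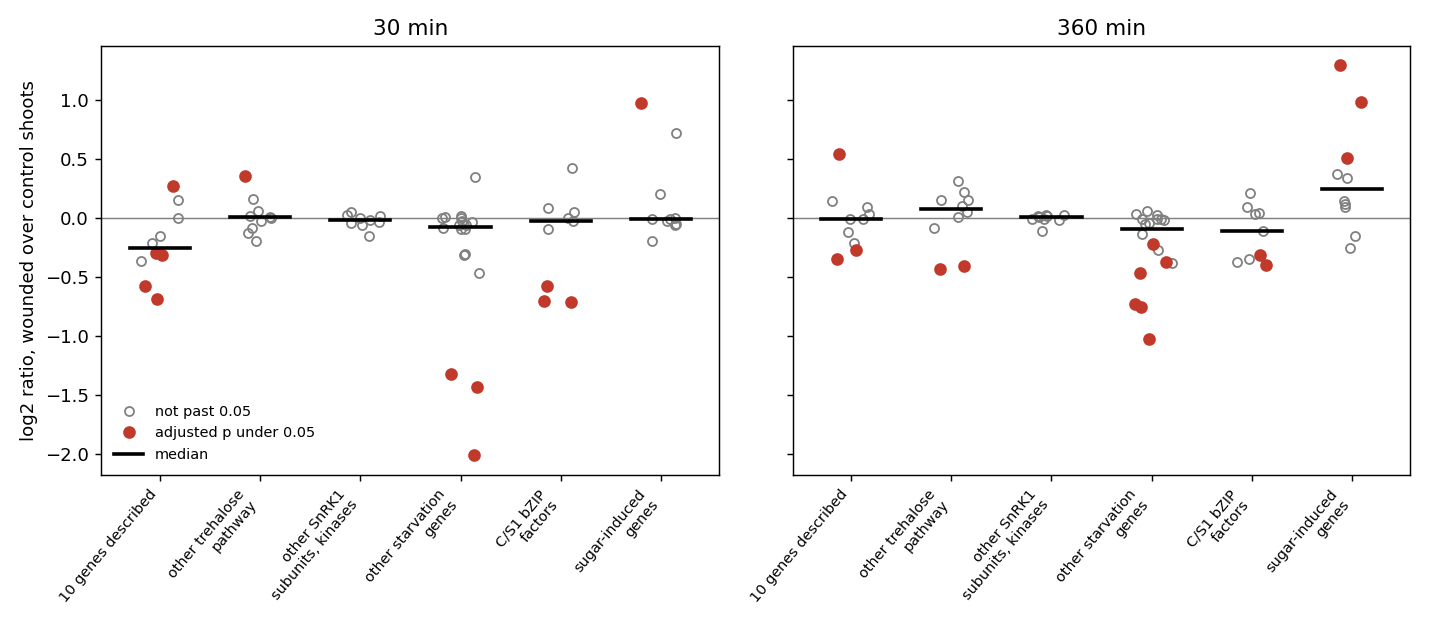
Log2 ratio of wounded over control shoots at 30 min (left) and 360 min (right) for the 10 genes described and for 5 lists of related genes, with filled points for an adjusted p under 0.05, open points for the rest, and a line at each list's median. At 360 min the filled points of the other starvation list, ASN2 included, lie below 0 and those of the sugar-induced genes above it.

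The 4 replicate ratios of the class II genes had medians of -0.17 and -0.20 at 30 min and 0.04 and -0.18 at 360 min, in replicates 1 and 2. The 5 genes nearest to that profile, by Euclidean distance over the 4 replicates among 17435 genes, were AT2G43440, AT1G19860, DCP2 (AT5G13570), AT2G28200 and AT1G64850, at distances of 0.07 to 0.09. The class II genes with all 4 replicates lay farther from their own median, at 0.33 to 0.87, so the median describes none of them closely.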

How the data were processed

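Labelling with Cy3 or Cy5 started from 400 ng of RNA, per the labels. The submitters' processing notes name Agilent Feature Extraction 7.1.1. The deposited files hold mean and background intensity per channel, not normalized, and a log10 ratio of Cy5 over Cy3 with background subtracted and dyes normalized, per the file headers. The deposited series matrix equals that log10 ratio on every spot, with array medians between -0.00183 and 0.000378. The genome build of the probe annotation is not stated.

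Here intensities went through normexp with an offset of 50, which pulls ratios of dim probes toward 0, and loess with 1075 control spots and outliers at weight 0 (limma 3.58.1, R 4.3.3). Ratios were turned to wounded over control. Outlier spots, 13 to 888 per array, were left out with their dye partner, and dye pairs averaged. A probe was kept if all channel measurements of 1 or more of the 4 conditions were well above background (19178 probes). lmFit and eBayes had 1 coefficient per time, with 2 residual and 3.58 prior degrees of freedom, so a call at one time depends on the spread at both. Tests were 2-sided at a Benjamini-Hochberg adjusted p of 0.05. Levels are channel values after quantile normalisation of average intensities, outlier spots kept, fitted by condition. In that fit wounded and control values of a replicate were taken as independent, although they come from the same arrays. The number of arrays limits precision. The normalisation and the fit of the ratios were also run on simulated data, with replicate effects drawn independently. The fit of the levels was not.

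Loci matched the RefSeq table of TAIR10.1, used for names, for 98.6% of probes. The genes and lists were chosen with earlier results of these data known. All 10 genes are named whatever their p, and of each related list up to 4 genes a time past 0.05 by smallest adjusted p, with TPS1, TPS6, KIN10 and KIN11 and the 5 genes of nearest profile. Same-numbered replicates of the different times did not deviate together (correlation -0.03 across 17444 genes), so the numbers were not taken as pairs. A planned promoter motif search was not made, as no sequences were used here. Alternatives changed the background correction, normalization, log ratio, filter, outliers and fit, or left out a replicate.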

Additional observations from a re-analysis of the deposited data

Results flagged for a closer look

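The wound response of 3 of the 10 genes differed between the times in the test of the difference itself (limma, 360 minus 30 min). The log2 ratio differed by 0.70 for TPS5 (adjusted p = 0.00527), by -0.43 for TPS7 (adjusted p = 0.0306) and by 0.68 for TPS11 (adjusted p = 0.047). For TPS5 and TPS7, 2 of 2 replicates at 360 min lay on the opposite side of 0 from 2 of 2 at 30 min, and for TPS11 the replicates at 360 min lay on either side of 0. TPS5 passed in 12 of 14 alternatives, TPS7 in 8 and TPS11 in 5.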

How the results depend on the processing

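Of the 10 genes, 5 passed at 30 min, against 2 without background correction, 3 with a normexp offset of 0, 2 with median centring, 3 on the authors' log ratios, 2 with outlier spots kept, and 0 to 6 with a replicate left out. At 360 min 3 passed, against 1 with an offset of 0, 1 on the authors' log ratios, 0 with that time fitted alone, and 0 to 3 with a replicate left out. For the difference 3 passed, against 1 with an offset of 0, 1 with median centring, 1 on the authors' log ratios, 5 with all 8 arrays fitted and the dye pair as a random block, and 0 to 3 with a replicate left out. Between times 2 passed in control shoots, against 1 without quantile normalisation and 0 with any replicate left out, and 3 in wounded shoots, against 0 to 3. Over all genes the count at 30 min was 1282, against 2096 with the random block and 304 to 1680 with a replicate left out. At 360 min it was 1398, against 124 with an offset of 0, 130 on the authors' log ratios, 79 with that time alone, 2856 with the random block and 79 to 1317 with a replicate left out. The share that was higher also moved, with 590 higher and 808 lower against 75 and 49 at an offset of 0, 74 and 56 on the authors' log ratios, and 825 and 492 without 360 min replicate 2. For the difference it was 1414, against 716 with an offset of 0, 716 on the authors' log ratios, 2929 with the random block and 169 to 1720 with a replicate left out. Between times it was 313 in control shoots, against 892 with a replicate block, 490 without background correction, 179 without quantile normalisation (124 higher and 55 lower, against 156 and 157) and 11 to 33 with a replicate left out, and 755 in wounded shoots, against 1453 with a replicate block and 29 to 668. In the random block fit the correlation within dye pairs was -0.21. The causes were not tested, except that leaving out replicates removes samples.

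With a replicate block 4 of the 10 genes passed at 30 min, 2 did at 360 min, and the difference had 3, with ASN1 at an adjusted p of 0.0598 at 30 min and TPS7 at 0.0596 at 360 min. Between times the block gave 2 in control shoots and 3 in wounded shoots, where TPS5 passed (adjusted p = 0.0206) and SEN1 did not (adjusted p = 0.0521). Some ratios near 0 that did not pass changed sign. At 30 min TPS9 was at 0.0023 with an offset of 0 and TPS1 at -0.014 on the authors' log ratios, and with a replicate left out TPS9 ran from -0.030 to 0.021, TPS6 from -0.066 to 0.020, TPS1 from -0.028 to 0.047 and KIN10 from -0.078 to 0.044. At 360 min TPS8 was at 0.037, TPS11 at 0.0081 and KIN10 at -0.029 with median centring, TPS8 at 0.11 with outlier spots kept and TPS9 at -0.00083 on the authors' log ratios. With a replicate left out TPS9 ran from -0.18 to 0.24, TPS11 from -0.10 to 0.084, TPS1 from -0.034 to 0.050 and KIN11 from -0.018 to 0.053, and the difference from -0.18 to 0.25 for TPS9 and -0.0097 to 0.21 for BGAL4. Between times TPS5 in control shoots was at -0.0075 without background correction and -0.10 to 0.11 with a replicate left out, and TPS9 in wounded shoots at -0.67 to 0.10. A lone remaining replicate is taken to vary as those of the other time do. ASN1 at 360 min is limited by its low signal.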
